A study of Mus musculus with 6 samples.

Results

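The genes described here encode the sterol regulatory element binding proteins (SREBPs) and the machinery that processes them: Srebf1, Srebf2, Scap, Insig1, Insig2, Mbtps1 and Mbtps2. The members were chosen by name as rows of the array table whose annotation gives 1 gene symbol equal to theirs, and where a gene had several such rows, the row of highest mean across all 6 arrays was to be kept. This found 6 of the 7 members, each with 1 row of its own, among 19938 genes tested. Mbtps2 had no row of its own, because its only row also lists Yy2. RNA came from jejunal mucosal scrapings, the lining of a middle stretch of the small intestine, and each group, ISR2 and wild type littermates, has 3 arrays. Both groups are C57/BL mice aged 8 to 10 weeks, on regular chow with free access to food and water. The ISR2 line is transgenic, with SREBP2 overactive in the intestine; its promoter, its construct and the sex of the mice are not stated in the labels. Whether every array is a different animal is not stated either, and p-values here cover only the spread between arrays, which may be technical.

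SREBPs are transcription factors made as precursors anchored in the membrane of the endoplasmic reticulum. The escort protein SCAP carries them to the Golgi when sterols are scarce, where the site-1 protease (Mbtps1) and then the site-2 protease (Mbtps2) release the part that enters the nucleus. When sterols are plentiful, INSIG proteins hold SCAP and its cargo back in the endoplasmic reticulum. SREBP2 is best known for driving cholesterol synthesis and uptake, and SREBP1 for fatty acid synthesis. The arrays measured RNA only, not cleavage or protein.

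The promoters of the 3 genes that rose are shown because SREBPs act through short DNA motifs near the starts of their target genes. Each is the 250 bases before a start site in RefSeq, build GRCm38.p6, in the direction of transcription. Srebf2 lies at chr15:82147019-82147268 on the plus strand, and Insig1 at chr5:28071162-28071411 on the plus strand. For Srebf1, which has 3 start sites in that table, the most downstream is shown, at chr11:60210472-60210721 on the minus strand. Capitals mark matches on either strand to CCAAT (the NF-Y box), GGGCGG (an Sp1 box), CACGTG (an E-box) and TCACNCCA (the first letters of the sterol regulatory element core).

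Srebf2: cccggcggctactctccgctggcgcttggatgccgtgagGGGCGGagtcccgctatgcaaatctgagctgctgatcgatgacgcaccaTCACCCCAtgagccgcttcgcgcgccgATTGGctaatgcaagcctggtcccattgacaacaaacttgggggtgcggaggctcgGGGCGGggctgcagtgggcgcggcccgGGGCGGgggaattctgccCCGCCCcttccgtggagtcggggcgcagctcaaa

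Insig1: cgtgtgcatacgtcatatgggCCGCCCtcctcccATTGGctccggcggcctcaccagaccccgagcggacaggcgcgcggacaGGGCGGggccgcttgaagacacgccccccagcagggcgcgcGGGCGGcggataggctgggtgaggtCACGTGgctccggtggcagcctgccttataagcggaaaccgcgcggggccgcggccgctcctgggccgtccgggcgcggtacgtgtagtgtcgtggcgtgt

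Srebf1: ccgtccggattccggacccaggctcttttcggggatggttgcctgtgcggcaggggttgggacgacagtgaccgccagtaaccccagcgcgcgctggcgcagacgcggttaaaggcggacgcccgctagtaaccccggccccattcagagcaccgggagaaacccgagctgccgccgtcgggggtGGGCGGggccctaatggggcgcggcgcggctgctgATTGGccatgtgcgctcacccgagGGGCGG

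The core of the sterol regulatory element, searched as TCACNCCAC on both strands of the 300-base windows from 250 bases before to 50 after each start, was in no window of any of the 7 genes. It was in 1.24% of the 32851 RefSeq windows. The shorter TCACNCCA, chosen after the sequences were seen, was in the Srebf2 window, 162 bases before the start, and in 4.36% of all windows. CCAAT was in the windows of Srebf2 and Insig1, in 2 of the 3 of Srebf1 and 1 of the 3 of Insig2, and in 37.4% of all windows. GGGCGG occurred 5 times in the Srebf2 window and 3 times in the Insig1 window, and at least once in 35.7% of all windows. It was also in 2 of the 3 windows of Srebf1 (3 and 2 times), in both of Scap (1 and 3 times), in 2 of the 3 of Insig2 and in that of Mbtps1, and so in genes that rose and in genes that did not pass. CACGTG was in the Insig1 window, 101 bases before the start, and in both Scap windows, against 7.15% of all windows. The Scap windows overlap, so their CACGTG is the same site, and the GGGCGG of the first is also in the second. Each match is a description of letters and not of binding, and a missing match says only that these letters are not in this window. No motif overlapped another in the stretches shown.

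In both groups replicate 2 stood apart in markers of smooth muscle, which lies beneath the epithelium. The mean log2 level of 10 markers of smooth muscle and stroma was 9.92 in wild type replicate 2 against 7.44 and 7.91 in replicates 1 and 3. In ISR2 it was 9.27 in replicate 2 against 8.01 and 8.05. Des, the muscle filament gene desmin, was at 11.58 and 10.52 in the replicate 2 arrays and at 7.45 to 8.26 in the other 4. The stromal collagen genes of the list did not share this pattern in ISR2. Col1a1, Col1a2 and Col3a1 were highest in replicate 2 among wild type arrays, but among ISR2 arrays they were lowest there, at 7.82, 7.38 and 7.50. Without both replicate 2 arrays, a setting chosen after seeing the data, the changes of Srebf2, Srebf1 and Insig1 given below were 1.82, 1.49 and 3.39, the same 3 members passed, and 436 genes did in all.

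Of the 6 measured members, 3 were higher in ISR2 mucosa at an adjusted p under 0.05, Insig1, Srebf2 and Srebf1, and 3 did not pass, Scap, Insig2 and Mbtps1. Over all genes, 602 passed this threshold, or 3.02%, with 1.79% upward (356 genes) and 1.23% downward. With each array centred on its median, 415 of 570 calls were upward, or 72.8%, against 59.1% as deposited. The same 3 members passed in each of the 18 alternative settings. All genes together had a median log2 change of -0.062, and the 6 members one of 0.98. The members that passed changed by 1.67 to 3.38, and the rest by -0.22 to 0.28.

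Srebf2 encodes SREBP2, the factor that is overactive in this line. Its log2 expression was 9.04, 9.15 and 9.50 in wild type replicates 1, 2 and 3 and 11.02, 10.85 and 11.16 in ISR2 replicates 1, 2 and 3. The lowest ISR2 array stood well above the highest wild type array, so the groups did not overlap. Non-overlap held for 19.8% of all genes, with ISR2 higher in 5.87% and lower in 13.9%. The change was 1.78 ± 0.16 on the log2 scale (SE, n = 3 per group; 95% interval 1.42 to 2.13), or 3.43-fold with an interval of 2.68 to 4.39-fold (limma adjusted p = 0.000298). It ranked 81 among all genes ordered from the largest rise. A second row lists Srebf2 beside Ube3a, C230091D08Rik and P3h3 and was not used, since it cannot be assigned to 1 gene. It stood at 7.38, 7.51 and 7.27 in wild type and 7.52, 7.37 and 7.57 in ISR2 replicates 1, 2 and 3. Its groups overlapped, and it changed by 0.097 ± 0.13 (SE, n = 3 per group; 95% interval -0.21 to 0.40; adjusted p = 0.855 in the limma fit of all rows). Signal from the transgene and from the mouse's own Srebf2 gene cannot be told apart in these values.

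The miR-33 gene, Mir33, lies within Srebf2 on the same strand, and miR-33 is known for lowering ABCA1. The mature miRNA from the 5′ arm is shown because the host gene rose; it lies at chr15:82198127-82198147 on the plus strand of GRCm38.p6 (RefSeq), and the capitals mark its seed, bases 2 to 8.

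mmu-miR-33-5p: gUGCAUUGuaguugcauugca

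The array has a row for Mir33, identified by its RefSeq accession. Its log2 values were 3.59, 3.16 and 3.29 in wild type and 3.09, 3.07 and 3.37 in ISR2 mucosa. The groups overlapped, and the change was -0.17 ± 0.15 (SE, n = 3 per group; 95% interval -0.52 to 0.18; limma adjusted p = 0.728). Only 2.67% of the genes tested had a lower mean, and no background value shows that this row was above background. The row therefore gives no measure of whether miR-33 followed Srebf2.

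Srebf1 encodes both SREBP1a and SREBP1c, which differ in their first exon and are not separated by a single row. Its log2 expression was 8.55, 8.26 and 8.78 in wild type replicates 1, 2 and 3 and 10.10, 10.28 and 10.21 in ISR2 replicates 1, 2 and 3. All ISR2 arrays were higher than all wild type arrays, and the ISR2 arrays lay closer together (SD 0.095 against 0.26). The change was 1.67 ± 0.15 (SE, n = 3 per group; 95% interval 1.32 to 2.02), or 3.18-fold (limma adjusted p = 0.000395). It ranked 92 among all genes from the largest rise.

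Insig1 encodes one of the 2 INSIG proteins and is itself a known target of SREBP. Its log2 expression was 10.14, 10.17 and 10.17 in wild type and 13.51, 13.52 and 13.58 in ISR2 replicates 1, 2 and 3. The arrays of a group almost coincided, and 99.8% of genes had a larger spread within groups than Insig1. The change was 3.38 ± 0.11 (SE, n = 3 per group; 95% interval 3.12 to 3.63), or 10.4-fold with an interval of 8.69 to 12.4-fold (limma adjusted p = 8.22e-07). It ranked 22 among all genes from the largest rise. The SE is larger than the arrays of this gene alone would give, because limma draws each gene's variance toward that of all genes.

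Insig2, the other INSIG gene, was measured at 8.61, 8.22 and 8.20 in wild type and 8.22, 8.18 and 7.94 in ISR2 replicates 1, 2 and 3. The groups overlapped, and wild type replicate 1 stood apart as the highest array. The change was -0.22 ± 0.15 (SE, n = 3 per group; 95% interval -0.57 to 0.12; limma adjusted p = 0.62), and it was -0.091 without wild type replicate 1. The interval runs from 0.67-fold to 1.09-fold and so lies below any rise of the size of Insig1, Srebf2 or Srebf1.

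Scap encodes the sterol-sensing escort of both SREBPs. Its log2 expression was 8.23, 7.96 and 8.53 in wild type and 8.63, 8.20 and 8.74 in ISR2 replicates 1, 2 and 3. The groups overlapped, and in each group replicate 2, the array highest in smooth muscle markers, was the lowest and replicate 3 the highest; the part of those cells in the result was not tested. The change was 0.28 ± 0.19 (SE, n = 3 per group; 95% interval -0.15 to 0.72; limma adjusted p = 0.608). It depended on the arrays used: it was 0.15 without wild type replicate 2, 0.18 without ISR2 replicate 3, 0.43 without wild type replicate 3, 0.44 without ISR2 replicate 2 and 0.59 without the last 2 of these together (adjusted p = 0.0912). Without both replicate 2 arrays it was 0.31. It passed in none of the 18 alternative settings.

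Mbtps1 encodes the site-1 protease, which makes the first cut in the SREBP precursors. Its log2 expression was 8.60, 8.82 and 8.97 in wild type and 8.68, 8.31 and 9.06 in ISR2 replicates 1, 2 and 3. The ISR2 arrays enclosed the wild type arrays, with ISR2 replicate 2, the ISR2 array highest in smooth muscle markers, the lowest of the 6 and ISR2 replicate 3 the highest; the part of those cells was not tested. The change was -0.11 ± 0.20 (SE, n = 3 per group; 95% interval -0.56 to 0.33; limma adjusted p = 0.875), and its sign turned to 0.072 without ISR2 replicate 2 and 0.085 without both replicate 2 arrays. Only 15.7% of genes had a larger spread within groups than Mbtps1, and 17.6% than Scap.

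For Mbtps2, the site-2 protease, the row that lists it beside Yy2 cannot be assigned to either gene. That row stood at 6.84, 6.62 and 7.03 in wild type and 7.12, 6.63 and 6.91 in ISR2 replicates 1, 2 and 3. The groups overlapped, and the row changed by 0.057 ± 0.18 (SE, n = 3 per group) with a 95% interval of -0.35 to 0.47 in the limma fit of all rows (adjusted p = 0.946).

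**Figure D1:**
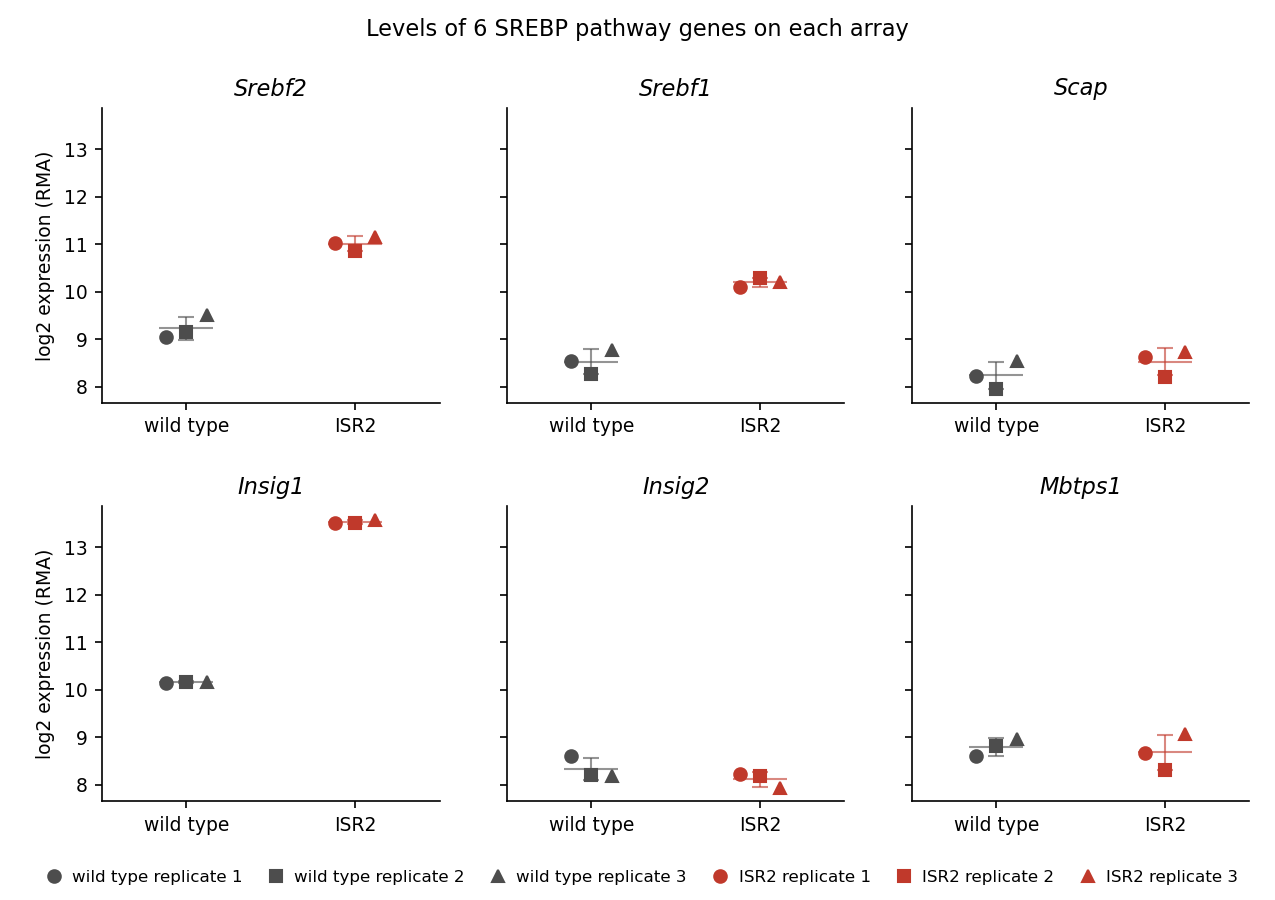
Log2 expression (RMA) of 6 genes of the SREBP pathway on each array, wild type in grey and ISR2 in red; the shape of a point gives the replicate number, and bars are the group mean ± SD (n = 3). Srebf2, Srebf1 and Insig1 have all ISR2 arrays above all wild type arrays, while the groups overlap for Scap, Insig2 and Mbtps1.

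Whether pairs of members changed unequally was asked with their difference within each array, which cancels any scaling shared by an array. Of 5 pairs planned, 4 could be measured, since Mbtps1 against Mbtps2 lacked a row for the latter. An exact two-sided permutation test of 3 arrays against 3 cannot go below 0.10. Levels of different genes are not comparable on an array, so only the change of each difference is read. Each pair with Insig2 or Scap sets a member that passed against one that did not. Its separation restates the changes given above and is no independent support.

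Insig1 minus Insig2 was 1.54, 1.95 and 1.98 in wild type and 5.29, 5.34 and 5.64 in ISR2 replicates 1, 2 and 3. The groups did not overlap, and the ratio of Insig1 to its paralog was 12.1-fold higher in ISR2 mucosa, a difference of 3.60 on the log2 scale. The exact permutation test gave p = 0.1, the smallest it allows, and 0.133 adjusted over the 4 pairs.

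Insig1 minus Scap, the retention factor against the escort that it binds, was 1.92 ± 0.28 in wild type and 5.01 ± 0.26 in ISR2 arrays (mean ± SD, n = 3; exact permutation p = 0.1, adjusted 0.133). This is a ratio 8.52-fold higher. Srebf2 minus Scap was 0.99 ± 0.19 in wild type and 2.48 ± 0.14 in ISR2 arrays (mean ± SD, n = 3; exact permutation p = 0.1, adjusted 0.133), a ratio 2.81-fold higher. In both pairs the groups did not overlap. The Srebf2 values may include signal from the transgene, whose construct is not stated. Whether this ratio concerns precursor that SCAP carries is therefore not known.

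Srebf2 minus Srebf1 was 0.49, 0.89 and 0.72 in wild type and 0.92, 0.56 and 0.95 in ISR2 replicates 1, 2 and 3. The groups overlapped, and the rises of the 2 factors differed by 0.11 on the log2 scale (exact permutation p = 0.5, adjusted 0.5). Without 1 array at a time this difference was between 0.0041 and 0.24, and without both replicate 2 arrays it was 0.33. With 3 arrays per group, this does not show that the rises were equal, and the Srebf2 values may include signal from the transgene.

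**Figure D2:**
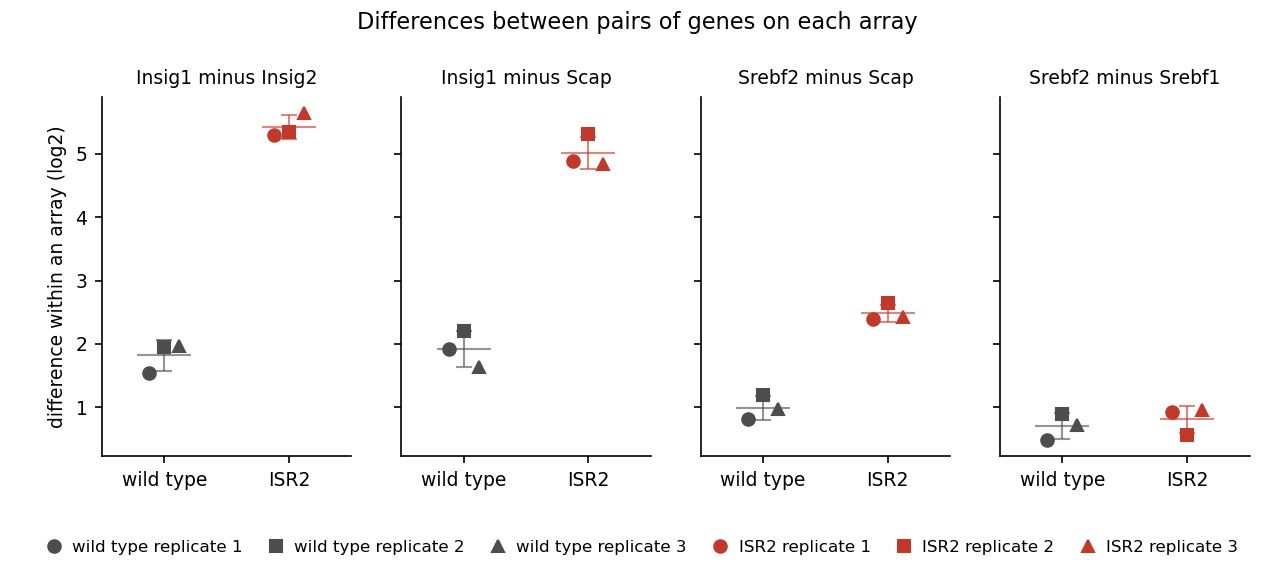
Difference between the log2 values of 2 genes on the same array, for 4 pairs, wild type in grey and ISR2 in red; shapes give the replicate number and bars the group mean ± SD (n = 3). The groups separate for Insig1 minus Insig2, Insig1 minus Scap and Srebf2 minus Scap, and overlap for Srebf2 minus Srebf1.

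The other genes that handle SCAP, INSIG and SREBP outside the nucleus were read from lists. In limma, none of 10 measured genes of INSIG and reductase turnover, 12 genes of the COPII coat, 8 other substrates of the 2 proteases and 5 other membrane partners passed. At an unadjusted p under 0.05, 1, 2 and 2 genes of the first 3 lists were lower and 1 other substrate was higher, and no membrane partner passed; of all genes, 8.4% were lower and 4.73% higher at that threshold. The turnover list holds ubiquitin ligases and helper proteins that degrade INSIG and HMG-CoA reductase. Its changes ran from -0.48 to 0.39 with a median of -0.044, beside -0.062 for all genes. Its lowest member was Erlin1, a membrane scaffold of this degradation, at -0.48 ± 0.14 (SE; adjusted p = 0.138); Erlin1 and the other list extremes below were named after their values were seen.

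The COPII coat forms the vesicles that take SCAP and SREBP out of the endoplasmic reticulum. Of its 12 genes, 9 were lower and 3 higher, with a median of -0.18 and a range of -0.50 to 0.21. Sec13, a coat subunit, went from 10.13 ± 0.19 to 9.62 ± 0.14 (mean ± SD, n = 3; limma adjusted p = 0.135). With ISR2 replicate 2 and wild type replicate 3 left out, the median was -0.081 but the lowest change was -1.02, and 1 coat gene passed downward. That count was 1 rather than 0 in 2 of the 18 alternative settings, this one and array weights.

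The other substrates of the site-1 and site-2 proteases include the stress sensors ATF6 and the CREB3 family. Their median was -0.13, beside -0.062 for all genes, and 7 of the 8 were lower. This count depended on the arrays used. Without ISR2 replicate 2 and wild type replicate 3, 4 were higher and 4 lower, with a median of 0.035. Without both replicate 2 arrays, 4 were again higher and 4 lower, with a median of -0.059. Creb3l2, a CREB3 family factor of secretory cells, went from 9.60 ± 0.32 to 8.91 ± 0.09 (mean ± SD, n = 3; limma adjusted p = 0.0732), and Atf6 differed by -0.091 (adjusted p = 0.857). The number of genes passing downward was 1 rather than 0 in 5 of the 18 alternative settings. The number passing upward was 1 rather than 0 in 1 setting, without ISR2 replicate 2 and wild type replicate 3. The 5 other membrane partners, among them Paqr3 and Pgrmc1, differed by 0.046 to 0.18.

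Among 14 nuclear cofactors and genes of SREBP turnover, Lpin1 rose and 13 did not pass. Lpin1 encodes lipin 1, a phosphatidate phosphatase that can also enter the nucleus and lower SREBP activity, and it rose 17.0-fold, from 6.06 ± 0.07 to 10.14 ± 0.06 (mean ± SD, n = 3; limma adjusted p = 4.25e-07). The others lay between -0.18 and 0.26 on the log2 scale, from Nfya to Nfyb, both subunits of the NF-Y partner of SREBP. Fbxw7, the ubiquitin ligase subunit that marks nuclear SREBP for degradation, differed by 0.15 (adjusted p = 0.76).

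Among 10 measured genes upstream of Srebf1, Bhlhe40, a repressor of the bHLH class, rose 1.54-fold and 9 did not pass. Its log2 values went from 8.07 ± 0.11 to 8.69 ± 0.00063 (mean ± SD, n = 3; limma adjusted p = 0.0252). When arrays were left out singly, it passed only without ISR2 replicate 2 and was lost in the other 5 fits (adjusted p up to 0.117); it was also lost with all rows tested (0.0736), without both replicate 2 arrays (0.0729) and without ISR2 replicate 2 and wild type replicate 3 (0.0766). Nr1h3, which encodes LXRα, the oxysterol receptor that switches on Srebf1, was 8.73 ± 0.25 in wild type and 8.26 ± 0.12 in ISR2 mucosa (mean ± SD, n = 3), a difference of -0.47 (limma adjusted p = 0.211; 95% interval -0.82 to -0.12).

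Known target genes of SREBP rose almost without exception. All 13 measured sterol targets passed upward, with changes of 1.60 to 4.78 and a median of 3.38. Of 12 fatty acid targets 11 passed upward, and the list median was 3.26. Thrsp, at 0.19, did not pass (limma adjusted p = 0.837). Stard4, a sterol transfer protein, had the smallest rise of the sterol targets, 1.60, close to that of Srebf1. The target lists are well known and their rises were seen in these arrays before, so they are no independent support. Insig1, at 3.38, lay at the median of the sterol targets, and Srebf2 and Srebf1, at 1.78 and 1.67, lay at the low end of their range.

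**Figure D3:**
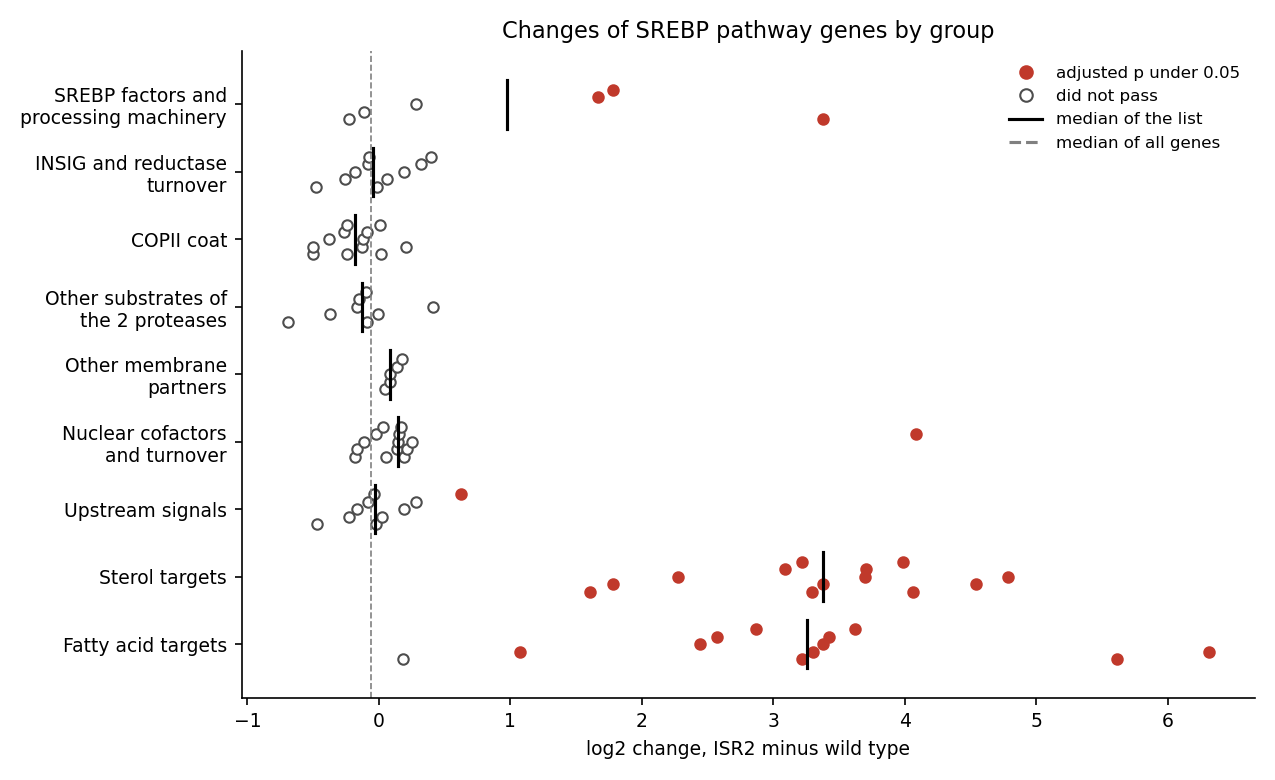
Log2 change, ISR2 minus wild type, of each measured gene in 9 groups of the SREBP pathway; red points passed an adjusted p of 0.05 in limma, open points did not, black lines are list medians and the dashed line is the median of all genes (-0.062). Outside the SREBP factors and Insig1, the red points are genes of the target lists and, from other lists, Lpin1 and Bhlhe40. The lists do not say whether a gene outside the target lists is also a target.

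The genes whose values followed each member most closely over the 6 arrays were found by Pearson's r over all genes, as a description. The 6 points form 2 groups of 3, so that r mostly reflects the group difference for the members that rose. For Srebf2 the closest were Fasn, the fatty acid synthase gene (r = 0.9998), Nab1 (r = 0.9997) and Pikfyve, a lipid kinase (r = 0.9996). For Srebf1 they were Ctsd, the lysosomal protease cathepsin D (r = 0.9984), Gla, the lysosomal alpha-galactosidase (r = 0.9966), and Slc16a13 (r = 0.9966). For Insig1 they were Pmvk, a mevalonate pathway kinase (r = 0.9997), Lpin1 (r = 0.9995) and Ero1a, an oxidase of the endoplasmic reticulum (r = 0.9995). These genes differ widely in the size of their own change: Fasn rose by 3.42, Nab1 by 0.97, Pikfyve by 1.03 and Ero1a by 0.56 on the log2 scale.

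The members that did not pass had fewer close followers. For the members that rose, genes with a group difference of their own reach a high r. No number expected by chance was computed. An r above 0.99 was reached by 73 genes for Insig1, 48 for Srebf2 and 33 for Srebf1, and by 3, 3 and 8 genes for Scap, Insig2 and Mbtps1. The closest to Scap were Slc39a11, Pgam5 and Ap3b1, the closest to Insig2 were Msh5, Ankrd7 and Il3ra, and the closest to Mbtps1 were Top1mt, Slc6a6 and Akap1. None of these 9 genes passed the limma test between groups (adjusted p of 0.587 to 0.894), which following a member that did not pass makes likely.

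The label of the tissue was checked against marker genes. The 12 enterocyte markers had a mean log2 level of 12.44 to 12.49 in wild type and 12.12 to 12.26 in ISR2 arrays, and 1 of 12 passed, downward. That gene was Alpi, whose adjusted p rose to as much as 0.194 when arrays were left out singly, with 5 of these 6 fits losing it. In all, 10 of the 12 were lower, 7 of them at an unadjusted p under 0.05. The number passing downward was 3 with an intensity trend or without ISR2 replicate 2 and 5 with array weights, and 0 in the single-array fits that lost Alpi, after median centring, with all rows tested and without both replicate 2 arrays. All 10 T cell markers were lower, 7 of them at an unadjusted p under 0.05 (8.4% of all genes), and 5 passed. Their list means were 7.47 to 7.88 in wild type and 6.58 to 6.99 in ISR2 arrays. The number passing was 3 when ISR2 replicate 3 or either of wild type replicates 1 and 2 was left out, or with all rows tested. Without both replicate 2 arrays it was 2. Means were 6.68 to 7.15 and 6.18 to 6.92 for 5 B and plasma cell markers, all lower and none passing. For 7 myeloid markers they were 6.98 to 7.33 and 6.63 to 7.31, with 5 lower and 2 higher, of which 1 passed, upward. None of the 10 smooth muscle and stroma markers passed between groups, with 6 higher and 4 lower and a median log2 change of 0.11. Only 0.010% of genes had a larger spread within groups than Des, so this says little. Without both replicate 2 arrays, 9 were higher and 1 lower, with a median of 0.36. Without ISR2 replicate 2 and wild type replicate 3, 4 were higher and 6 lower, with a median of -0.93. None of 7 pancreatic acinar markers passed, with means of 5.66 to 5.88 and 5.44 to 5.61. In scraped mucosa, fewer cells of a type and less RNA per cell cannot be told apart, and the part of these cells in the members' changes was not tested. Medians of the 6 arrays lay between 6.04 and 6.19, and Pearson's r across rows was 0.975 to 0.986 within groups and 0.964 to 0.981 between them. With ISR2 replicate 2 and wild type replicate 3 left out, the changes of Srebf2, Srebf1 and Insig1 were 1.99, 1.75 and 3.39.

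**Figure D4:**
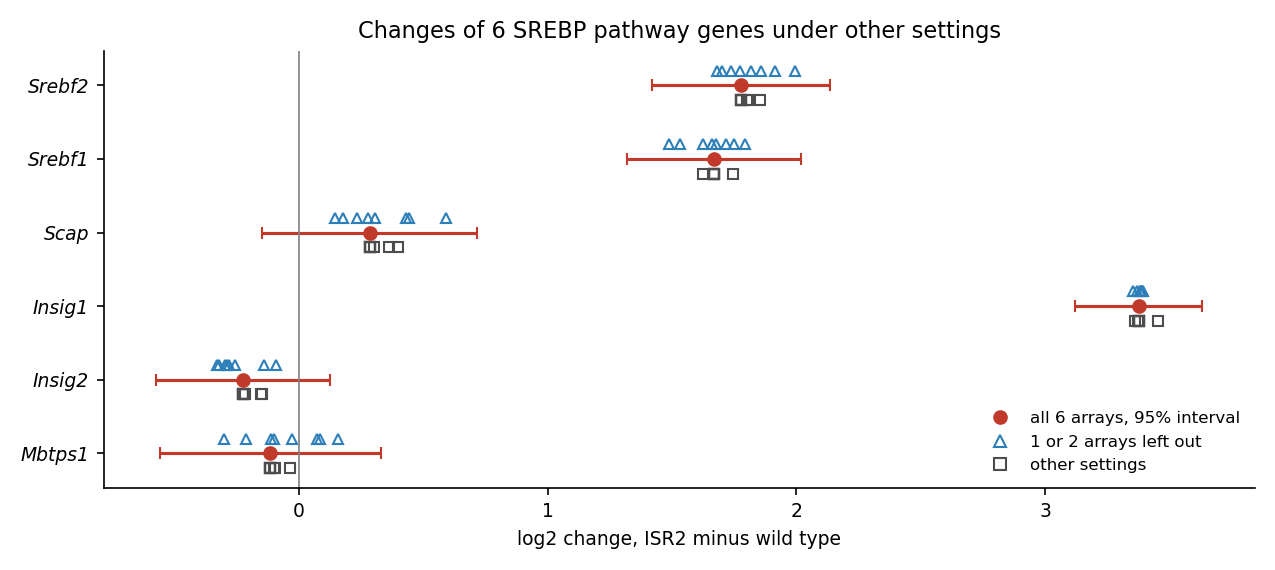
Log2 change of 6 genes, ISR2 minus wild type, with all 6 arrays (red, with the 95% interval from limma), with 1 or 2 arrays left out (blue triangles) and under other settings (grey squares). Srebf2, Srebf1 and Insig1 stay at 1.49 or above throughout, Scap stays above 0, and Mbtps1 falls on both sides of 0.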

How the data were processed

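Jejunal RNA was hybridised after Affymetrix whole-transcript labelling, per the labels' protocols. The authors used RMA to make the deposited log2 values, per the submitters' processing notes; these span 1.44 to 14.8, from which the scale was read. RMA equalises the arrays' distributions, so changes are relative to the bulk of genes, and leftover background can compress changes of dim genes. The RMA version and filters are not stated there.

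Of 35556 rows, 21789 had 1 gene symbol, 1621 several and 12146 none, and 21698 matched GRCm38.p6 genes by Entrez ID with 0 symbols changed. Rows with 1 symbol gave 19938 genes, 1 row each. limma 3.58.1 (lmFit, eBayes; R 4.3.3) compared ISR2 with wild type over all genes at once, without covariates, with two-sided p-values and Benjamini-Hochberg adjustment across every gene. The steps were tested on simulated data. Figures used matplotlib 3.10.9. The members, lists and tests were chosen with earlier results of these data known. Named genes were all members and the 3 genes most like each member (Pearson's r over 6 arrays, no predicted genes or olfactory or vomeronasal receptors). Up to 4 passing genes per list, by smallest p, were planned for naming, but not all of them are named here. Others were named after their values were seen. Alternatives changed eBayes, array weights, scaling, filter, rows, block, threshold and arrays.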

Additional observations from a re-analysis of the deposited data

How the results depend on the processing

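The calls of Insig1, Srebf2 and Srebf1 were kept in all 18 alternatives, 1 of them chosen after seeing the data, with log2 changes of 3.35 to 3.45, 1.68 to 1.99 and 1.49 to 1.79 and adjusted p up to 4.4e-05, 0.00427 and 0.00409. Scap and Insig2 kept their sign and passed in none. Mbtps1 was between -0.30 and 0.072 with 1 array left out, positive only without ISR2 replicate 2, 0.16 with ISR2 replicate 2 and wild type replicate 3 both left out and 0.085 without both replicate 2 arrays; that ISR2 replicate 2 was its lowest array shows why the sign turned. Over all genes, 602 calls became 1268 with array weights, for which the cause was not tested, and 335 to 589 without 1 array. With ISR2 replicate 2 and wild type replicate 3 both left out 775 passed, more than with all arrays, and the cause was not tested. Wild type replicates 1 and 2 and ISR2 replicate 1 each moved that count by over 1.5 times (345, 388 and 335). The 4 differences between pairs of members kept their sign in the 9 alternatives in which they were computed. With the replicate number as a block, 778 genes passed, and the same 3 members did (Insig1 3.38, Srebf2 1.78, Srebf1 1.67). Deviations of same-numbered arrays correlated at -0.016, 0.32 and 0.54. Wild type replicates 2 and 3 each correlated best with the ISR2 array of their own number. Wild type replicate 1 correlated better with ISR2 replicate 2 (0.2) than with its own number. These values do not settle whether the numbers pair the arrays. The number of arrays limits the precision.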
